A study of Mus musculus with 80 samples.

Results

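The genes of de novo DNA methylation and their repressor form a set of 4 in mouse embryonic stem cells (ESCs): Dnmt3a, Dnmt3b, Dnmt3l and Prdm14. They were chosen by symbol, as 4 of the 25965 rows of the deposited expression table, and were followed across its 12 samples and in the bins of dimethylated lysine 9 of histone H3 (H3K9me2) that overlap each gene. All samples came from E14, a wild-type mouse ESC line, so every value describes 1 line. RNA-seq compared cells in serum medium with LIF and cells after 6, 24 and 72 h in 2i, a serum-free medium with LIF and inhibitors of MEK and GSK3 (3 samples each). H3K9me2 ChIP-seq covered serum cells, cells of the 24 h time point and cells kept in 2i long term (LT2i), with 2 bound libraries and 1 input each. The time in LT2i is not in the labels, and LT2i has no RNA-seq here. The study describes the samples of its expression time course as biological replicates. Nothing used here says whether the bound libraries of a group came from separate cultures, so p-values for H3K9me2 measure the spread between these libraries, which may be technical.

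DNMT3A and DNMT3B place methyl groups on unmethylated CpG sites, and DNMT3L, which has no catalytic activity of its own, binds both and stimulates them. DNMT3L also reads histone H3 that lacks methylation on lysine 4 and so guides the complex to chromatin. PRDM14 is a PR domain zinc finger protein of naive ESCs and primordial germ cells that represses the Dnmt3 genes and components of FGF signaling together with CBFA2T2 and Polycomb repressive complex 2 (PRC2). H3K9me2 is a repressive mark laid down chiefly by EHMT1 and EHMT2.

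Sequence at the starts of the 3 Dnmt3 genes is shown because these genes moved together. RefSeq windows (GRCm38.p6) were at hand for 3 of the 4 genes, and no window of Prdm14 was analysed here. There were 7 windows, each of 250 bases before and 50 after an annotated start. The 5 windows shown are read on the plus strand, the strand of these genes, and capitals mark every copy of the GC box GGGCGG or its complement and of the STAT motif TTCNNNGAA. They are Dnmt3b at chr2:153649199-153649498, the first and the second start of Dnmt3l at chr10:78042037-78042336 and chr10:78049592-78049891, and the upstream start of Dnmt3a at chr12:3806730-3807029 with the start of its shorter isoform at chr12:3891494-3891793.
Dnmt3b: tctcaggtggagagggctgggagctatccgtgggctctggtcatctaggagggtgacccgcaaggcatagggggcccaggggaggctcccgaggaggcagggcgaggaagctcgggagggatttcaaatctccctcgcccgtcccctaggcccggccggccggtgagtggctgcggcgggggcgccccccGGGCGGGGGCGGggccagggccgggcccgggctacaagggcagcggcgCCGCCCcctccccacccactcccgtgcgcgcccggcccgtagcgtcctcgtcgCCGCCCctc
Dnmt3l, first start: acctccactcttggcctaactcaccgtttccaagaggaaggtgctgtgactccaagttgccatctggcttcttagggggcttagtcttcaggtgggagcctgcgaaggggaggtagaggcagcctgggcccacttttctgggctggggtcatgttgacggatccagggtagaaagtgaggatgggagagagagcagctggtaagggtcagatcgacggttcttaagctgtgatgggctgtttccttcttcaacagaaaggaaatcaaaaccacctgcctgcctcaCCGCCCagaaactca
Dnmt3l, second start: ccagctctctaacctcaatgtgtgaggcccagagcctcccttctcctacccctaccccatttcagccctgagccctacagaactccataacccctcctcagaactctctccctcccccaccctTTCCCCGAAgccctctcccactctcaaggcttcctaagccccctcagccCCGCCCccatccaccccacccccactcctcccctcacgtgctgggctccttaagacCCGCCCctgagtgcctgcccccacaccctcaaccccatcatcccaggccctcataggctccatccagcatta
Dnmt3a, upstream start: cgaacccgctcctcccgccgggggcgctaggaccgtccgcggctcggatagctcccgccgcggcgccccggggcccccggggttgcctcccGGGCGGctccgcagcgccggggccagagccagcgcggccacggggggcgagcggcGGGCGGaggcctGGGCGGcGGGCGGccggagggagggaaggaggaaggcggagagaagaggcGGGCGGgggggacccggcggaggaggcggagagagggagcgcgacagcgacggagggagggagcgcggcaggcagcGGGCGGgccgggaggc
Dnmt3a, shorter isoform: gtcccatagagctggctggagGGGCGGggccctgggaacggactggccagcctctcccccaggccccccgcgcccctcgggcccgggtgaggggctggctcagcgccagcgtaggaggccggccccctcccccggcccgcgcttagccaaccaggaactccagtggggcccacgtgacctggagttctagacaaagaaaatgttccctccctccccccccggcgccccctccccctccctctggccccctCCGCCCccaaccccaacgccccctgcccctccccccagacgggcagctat
The upstream Dnmt3a window held 46 CpG sites, more than 98.4% of the 32851 mouse windows of this length. Dnmt3b followed with 30 CpG sites (more than 88.3% of windows) and the shorter Dnmt3a isoform with 18. The first Dnmt3l window held 6 and the second 4, against a median of 7 over all windows. The Dnmt3 genes thus differ widely in the number of CpG sites at their own starts, from 3 to 47 over the 7 windows. The GC box was present on either strand in 6 of the 7 windows and in 35.7% of all windows. The upstream Dnmt3a window overlaps another Dnmt3a window and shares GC boxes with it. Windows of like CpG number were not compared. The STAT motif was present in 1, the second Dnmt3l window, and in 8.3% of all windows. None of the 7 windows held GGTCTCTAA (PRDM14, 0.256% of all windows), CTTTGAT (TCF/LEF, 3.73%) or TCAAGGTCA (ESRRB, 0.423%) on either strand, which says only that these letters were not in these 300 bases.

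Expression fell for all 3 Dnmt3 genes from 6 h on and rose for Prdm14. Values are log2, corrected by the authors for gene length and library depth, and a gene was called at an adjusted p under 0.05 in limma over the 11376 genes tested, Benjamini-Hochberg adjusted. At 6 h 6.01% of genes tested were called lower and 8.24% higher, at 24 h 29.1% and 33.6%, and at 72 h 26% and 24.5%. In either direction these made 14.2%, 62.7% and 50.5% of genes. The 3 Dnmt3 genes were called lower and Prdm14 higher at each of these times. All 3 samples of each time lay apart from all 3 serum samples for each of the 4 genes, which in the Dnmt3 direction held for 20.3%, 30.4% and 32% of genes at 6, 24 and 72 h, and in the direction of Prdm14 for 23.5%, 33.8% and 30.5%. The median change over all genes stayed between -0.01 and 0.10. In a bulk sample, fewer cells with a transcript and less of it per cell cannot be told apart.

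**Figure D1:**
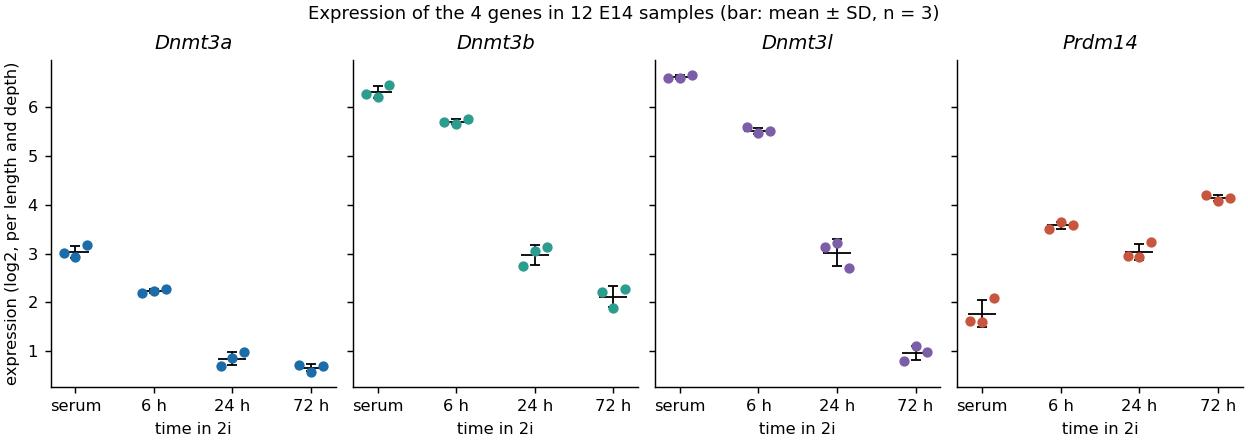
Expression (log2, per gene length and library depth) of Dnmt3a, Dnmt3b, Dnmt3l and Prdm14 in serum and after 6, 24 and 72 h of 2i. Each point is 1 sample, and the black bar gives mean ± SD (n = 3). Dnmt3b and Dnmt3l step down at each time and Dnmt3a up to 24 h, with its 24 h and 72 h samples overlapping, whereas Prdm14 stands at 3.58 at 6 h, 3.04 at 24 h and 4.14 at 72 h, above all serum samples.

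Libraries held 11456816 to 16993115 reads in genes, as recovered from the deposited values. The 8 markers of pluripotent cells summed to 1338 to 1435 on the linear scale of the values in serum, 1028 to 1143 at 6 h, 1063 to 1579 at 24 h and 1199 to 1555 at 72 h. Of these 8 markers 5 were called lower and 1 higher at 6 h (6.01% and 8.24% of all genes), and 4 lower and 2 higher both at 24 h (29.1% and 33.6%) and at 72 h (26% and 24.5%). The 8 fibroblast markers summed to 8.11 to 10.3 in serum and 4.79 to 5.44 at 72 h, with Lum at 0 reads in all groups and Dcn at 0 at 24 h, and the 8 primitive endoderm markers to 13.72 to 15.7 in serum, 8.39 to 13.71 at 24 h and 13 to 19.9 at 72 h. The 8 markers of mesoderm and neural cells summed to 15.8 to 17.7 in serum, 9.19 to 10.6 at 6 h, 8.16 to 11.7 at 24 h and 7.45 to 9.36 at 72 h. Of these 4 were tested, and 2 were called lower at 6 h and 3 at 72 h (6.01% and 26% of all genes). At 24 h 3 were called lower and 1 higher (29.1% and 33.6%). At 72 h 2 of 2 tested fibroblast markers and 1 of 2 tested primitive endoderm markers were called lower (26%). The part of these markers in the results was not tested.

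Dnmt3l, the catalytically inactive partner, had the largest fall of the 4 genes at 72 h. In serum its 3 samples stood at 6.59, 6.60 and 6.66 on the log2 scale (5430, 4505 and 6902 reads). At 6 h they stood at 5.59, 5.46 and 5.50, at 24 h at 3.14, 3.22 and 2.70, and at 72 h at 0.80, 1.11 and 0.99 (120, 119 and 114 reads). No group overlapped the next. Of all genes, 29.7% lay wholly lower from 6 to 24 h and 16% from 24 to 72 h. The fall of Dnmt3l continued over every interval. The change against serum was -1.10 ± 0.13 (SE, n = 3 per group, limma adjusted p = 0.000201) at 6 h and -3.59 at 24 h. At 72 h it reached -5.65 (adjusted p = 2.59e-10 in limma), a 50.2-fold lower level, and only 5 of the 11376 genes tested fell further. Genes with a mean level below 0 were not tested and are outside this rank. Spry4, for one, had a mean level of 4.84 in serum and -6.10 at 72 h. From 24 to 72 h Dnmt3l still fell by 2.06 (adjusted p = 2.81e-06 in limma), a step in which 14.6% of genes were called lower.

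Dnmt3b, the methyltransferase most abundant per gene length in serum, stood at 6.27, 6.21 and 6.46 in the serum samples (7395, 5910 and 10254 reads). At 6 h the samples gave 5.69, 5.65 and 5.76, and at 24 h 2.75, 3.05 and 3.14. At 72 h they gave 2.22, 1.88 and 2.27 (547, 348 and 472 reads). Each group lay wholly below the one before it, which held for 29.7% of genes from 6 to 24 h and for 16% from 24 to 72 h. Its changes from the serum level were -0.61 ± 0.13 (adjusted p = 0.01 in limma) at 6 h, -3.34 at 24 h and -4.19 (adjusted p = 1.48e-09) at 72 h, an 18.3-fold lower level. Of the 72 h change on the log2 scale, 14.6% was present at 6 h and 79.6% at 24 h. The step from 24 to 72 h was -0.86 (limma adjusted p = 0.000888).

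Dnmt3a, the other catalytic enzyme, had the smallest fall at 72 h, and its step after 24 h did not pass the test. Serum samples stood at 3.00, 2.94 and 3.18 (2510, 1985 and 3439 reads), and those of 6 h at 2.19, 2.24 and 2.29. At 24 h they stood at 0.71, 0.86 and 0.98 and at 72 h at 0.72, 0.58 and 0.69 (631, 460 and 517 reads). The last pair of groups overlapped. Against serum the change was -0.80 ± 0.11 (SE, n = 3 per group, limma adjusted p = 0.000483) at 6 h, -2.19 at 24 h and -2.37 (adjusted p = 2.76e-08) at 72 h, a 5.19-fold lower level. At 24 h 92.1% of the 72 h change was present, and the step from 24 to 72 h was -0.19 (adjusted p = 0.206 in limma). That step passed the test only once the trend of the changes with gene span was removed (-0.48, adjusted p = 0.00324). Dnmt3a has a span of 108437 bases, the longest of the 4 genes.

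Prdm14, the repressor, rose within 6 h, then lost part of the rise and rose again. Serum samples stood at 1.62, 1.60 and 2.09 (148, 121 and 249 reads), replicate 3 being the highest. At 6 h they stood at 3.51, 3.65 and 3.6 (497, 591 and 593 reads), and at 24 h at 2.95, 2.93 and 3.23 (336, 346 and 531 reads). At 72 h they reached 4.21, 4.07 and 4.14 (1091, 798 and 868 reads). No samples of different groups overlapped. Of all genes, 29.7% lay wholly lower from 6 to 24 h and 15.8% wholly higher from 24 to 72 h. The order of the Prdm14 levels was serum, 24 h, 6 h and 72 h. The change against serum was 1.82 ± 0.14 (adjusted p = 6.19e-06 in limma) at 6 h, a 3.52-fold higher level, 1.27 (adjusted p = 2.05e-05) at 24 h and 2.37 (adjusted p = 1.40e-07) at 72 h. Only 49 genes tested had a larger positive change at 6 h, and 937 did at 24 h. Genes with a mean level below 0 are outside these ranks too. From 6 to 24 h Prdm14 fell by 0.55 (adjusted p = 0.00605 in limma), where 28% of genes were called lower. From 24 to 72 h it rose by 1.10 (adjusted p = 0.000224), where 29.8% of genes were called and 15.2% were called higher, and 72 h exceeded 6 h by 0.56 (adjusted p = 0.00718, 20.8% called higher).

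**Figure D2:**
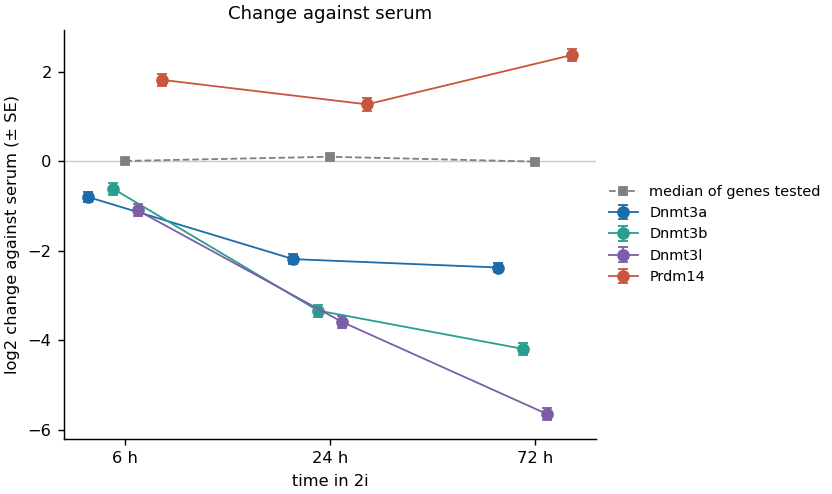
Change in expression against serum (log2, ± SE) at 6, 24 and 72 h of 2i for the 4 genes, with the median over all genes tested in grey. The points of a time are set side by side for legibility. Prdm14 stands 2.37 above serum at 72 h, and Dnmt3a, Dnmt3b and Dnmt3l stand at -2.37, -4.19 and -5.65.

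The order of the genes by level per gene length turned over. In serum Dnmt3l exceeded Dnmt3b by 0.30 ± 0.09 (SD of the difference over 3 samples, log2), Dnmt3b exceeded Dnmt3a by 3.27, and Prdm14 was lowest, 1.27 below Dnmt3a. At 6 h Dnmt3b stood 0.18 ± 0.08 above Dnmt3l, and Prdm14 had passed Dnmt3a. At 24 h the samples of Prdm14, Dnmt3l and Dnmt3b overlapped, with means of 3.04, 3.02 and 2.98, so these neighbours did not differ beyond their spread. At 72 h Prdm14 led with 4.14, 2.02 above Dnmt3b, followed by Dnmt3l and Dnmt3a, 0.30 ± 0.22 apart. Among all rows of the table, Dnmt3l moved from the 98.5th to the 61.9th percentile of level between serum and 72 h, and Prdm14 from the 68.6th to the 89.1st. Levels rest on the exon length that made the recovered reads whole, which was 16642 bases for Dnmt3a, 5106 for Dnmt3b, 2988 for Dnmt3l and 2564 for Prdm14. Isoforms of a gene cannot be told apart in these values.

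The genes also differed in the size of their change. At 72 h Dnmt3l had fallen further than Dnmt3b by 1.46 and further than Dnmt3a by 3.28 on the log2 scale, and Dnmt3b further than Dnmt3a by 1.82. In each of these comparisons the difference between the genes lay outside the serum range in all 3 samples. How many other pairs of genes did so was not counted. At 6 h the order was another one: Dnmt3a had fallen further than Dnmt3b by 0.19 and Dnmt3l further than Dnmt3b by 0.49. At 24 h Dnmt3b and Dnmt3l differed in their change by 0.26 (exact two-sided permutation test, p = 0.5). The other 17 of the 18 tests (6 pairs at 3 times) gave p = 0.1 (exact permutation, adjusted 0.106), the smallest value that 3 samples against 3 allow, so none could pass 0.05.

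Genes on the other strand overlap the starts of Dnmt3b and Dnmt3l, and the library kit does not mark strand, so reads in the shared bases cannot be told apart. Aire, the autoimmune regulator, shares 1664 bases with Dnmt3l at chr10:78041947-78043610. It stood at 547, 508 and 859 reads in serum, 94, 103 and 133 at 6 h, 42, 44 and 185 at 24 h, and 61, 59 and 324 at 72 h. Its level therefore fell by 2.46 (adjusted p = 0.0220 in limma) at 6 h and by 2.66 (adjusted p = 0.00439) at 72 h, with replicate 3 of 72 h well above the other two. Leaving out any 1 serum or 6 h library took the 6 h adjusted p to between 0.0553 and 0.0740. Aire held at most 859 reads where Dnmt3l held 6902, but at 72 h replicate 3 held 324 where Dnmt3l held 114. The antisense gene 7530422B04Rik, which shares 837 bases with Dnmt3b, had 0 to 6 reads per sample, and Gm10485, which lies inside Dnmt3a, had 0 in all 12. The near copy of Dnmt3b known as Dnmt3c (Gm14490) was not analysed here, so reads that fit both genes are uncertain. Icosl, the ligand of the costimulatory receptor ICOS, lies just beyond Dnmt3l and was picked after its values were seen. Icosl fell by 2.12 (adjusted p = 6.01e-05 in limma) at 6 h and fell by 3.06 at 72 h.

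Genes whose pattern over the 12 samples was most like each member were ranked by Pearson's r, as a description. For Dnmt3a they were Srl, E2f8, Jub, Lphn2 and Lef1 (r from 0.994 to 0.996), and for Dnmt3b they were Hmgxb4, Unc5b, Syt11, Slc5a5 and Gbp1 (0.991 to 0.996). For Dnmt3l they were Pdzd4, Id1, Myl9, Acsl5 and Gbp2 (0.990 to 0.997). For Prdm14 the closest was Tfap2c (r = 0.989), a transcription factor of primordial germ cells, ahead of B4galt5, AI464131, Cyp4f39 and Whamm. The change of Tfap2c from serum was 1.77 after 6 h, 1.40 after 24 h and 2.39 after 72 h. The 12 samples of any pair of genes share libraries and group means.

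Genes related to the members by family, pathway or setting were taken as 6 lists of 62 genes, of which 46 were tested. At 72 h 32 of them were called (50.5% of all genes), and no list is set apart from other genes by a test. Among the other DNMT family genes, Dnmt1, the maintenance methyltransferase, changed by -0.83 ± 0.21 (adjusted p = 0.00591 in limma) at 24 h and by -0.36 (adjusted p = 0.184) at 72 h. Trdmt1, which methylates transfer RNA, changed by 0.36 (adjusted p = 0.156) at 72 h.

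Among 16 chromatin partners of de novo methylation, 8 were lower and 1 higher at 72 h (26% and 24.5% of all genes), with a median change of -0.55 against -0.01 over all genes. Ehmt1, the partner of the H3K9 methyltransferase EHMT2, fell by 1.41, and Nsd1, which methylates lysine 36 of histone H3, fell by 1.28. Trim28, a corepressor of retroviral elements, fell by 1.18. Dppa3, which keeps UHRF1 off chromatin, rose by 2.02 (limma adjusted p = 6.44e-05). At 24 h 10 of the 16 were lower and 1 higher (29.1% and 33.6% of all genes), with a median of -1.03, and at 6 h 2 were lower and 1 higher (6.01% and 8.24%).

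Of 10 PRDM14 corepressors 8 were tested, and at 72 h 3 were lower and 2 higher (26% and 24.5% of all genes), with a median of 0.05. At 24 h 5 were lower and 1 higher (29.1% and 33.6% of all genes), with a median of -0.40 against 0.10 over all genes. Jarid2, a PRC2 cofactor, fell by 1.38 at 72 h after a change of -3.01 at 24 h. The PRC2 subunit Eed fell by 0.78 and the histone chaperone Rbbp7 by 0.36. Suz12, also in PRC2, rose by 0.38 (adjusted p = 0.0177 in limma). That call was lost without serum replicate 1 or 2 or without 72 h replicate 1 or 3 (adjusted p from 0.0521 to 0.0650).

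FGF signaling is both repressed by PRDM14 and blocked by the MEK inhibitor of 2i. Of 12 genes 7 were tested, and 5 were lower and 1 higher at 72 h (26% and 24.5% of all genes), with a median of -1.0. The filter on the mean level left out genes that stood low in 2i. Spry4, a feedback inhibitor like Spry2, had a mean level of 4.84 in serum and -6.10 at 72 h, Egr1, an immediate early gene, 2.60 and -1.82, and the ligand gene Fgf5 0.22 and -5.04, all 3 named after their values were seen. Without the filter 7 of the 12 were called at 6 h, 11 at 24 h and 9 at 72 h, against 4, 6 and 6 with it. Of all 25965 rows 8.56%, 34.5% and 30.2% were called without the filter. Etv4, a transcription factor downstream of ERK, fell by 5.69 (adjusted p = 1.88e-10 in limma). The ERK phosphatase gene Dusp6 fell by 5.41 (adjusted p = 2.44e-09 in limma). The feedback inhibitor Spry2 fell by 1.81 and Etv5 by 1.00. At 6 h Dusp6 had already fallen by 5.28 and Etv4 by 1.07.

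Other members of the PRDM family, zinc finger proteins with a PR domain, were taken as a list. Of 14 other PRDM genes 6 were tested, and at 72 h none was called higher and 5 were called lower (26% of all genes), with a median of -0.60. Without the filter on low values 9 of the 14 were called, and 30.2% of all rows. Prdm2 fell by 1.01, Prdm10 by 1.00, Prdm15 by 0.68 and Prdm1 by 0.52 (adjusted p from 0.00693 to 0.0307 in limma). At 6 h 1 was called higher, Prdm1 by 0.60 (adjusted p = 0.0291), and 1 lower (8.24% and 6.01% of all genes), and at 24 h 1 was higher and 5 lower (33.6% and 29.1%). The 6 h count was 0 or 1 with any 1 library left out. The 72 h count rested on single libraries. The 72 h count was 1 without serum replicate 1 or 3 or without 72 h replicate 2, and 3 without 72 h replicate 1.

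All 9 germ cell specification genes were called at 72 h, 7 higher and 2 lower (24.5% and 26% of all genes), with a median of 1.72. Of the 7 that rose, 3 are also known as naive pluripotency factors, Nanog (1.72, the median itself), Klf4 (1.35) and Klf2 (1.33). Kit, the receptor of stem cell factor, rose by 2.54, Dppa3 by 2.02 and Nanos3, a translational repressor, by 1.77 (adjusted p from 1.52e-06 to 6.44e-05 in limma). Tfap2c, with its change of 2.39, was the remaining one. Prdm1, which specifies primordial germ cells, was among the 2 that fell, and Dnd1, an RNA-binding protein gene, was the other. The call of Prdm1 was lost without serum replicate 1, serum replicate 3 or 72 h replicate 2 (adjusted p from 0.0566 to 0.0764 in limma). At 6 h 6 of the 9 were higher and none lower (8.24% and 6.01% of all genes), and at 24 h 7 were higher and 1 lower (33.6% and 29.1%). The 6 h calls of Nanos3 and Prdm1 were lost without any 1 serum or 6 h library. Their adjusted p then ran from 0.0520 to 0.169 for Nanos3 and from 0.0564 to 0.119 for Prdm1 (limma). Quantile scaling, another pseudocount, no filter and voom also removed the 6 h call of Nanos3.

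**Figure D3:**
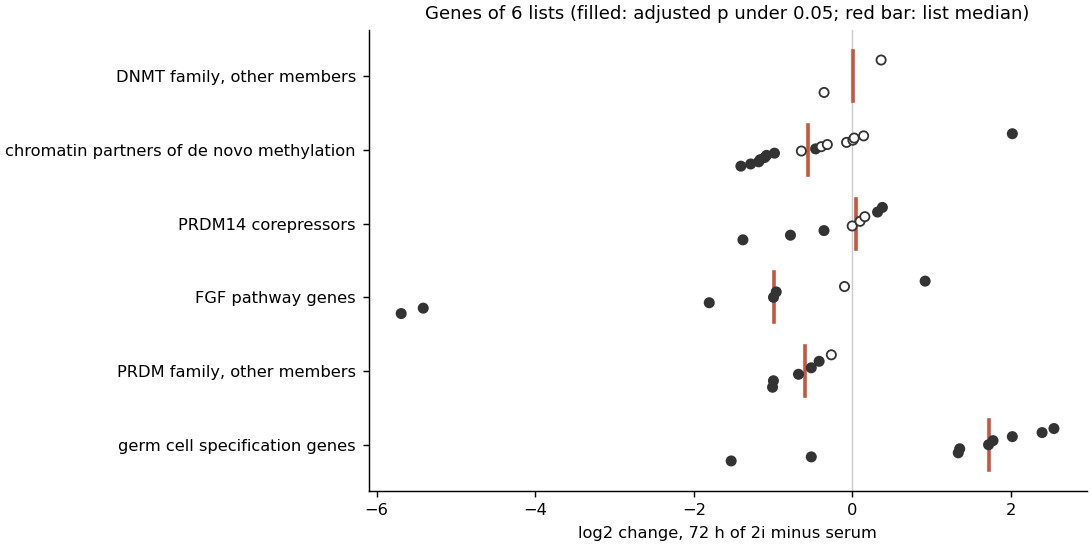
Change in expression at 72 h of 2i against serum (log2) for the tested genes of 6 lists, 1 point a gene. Filled points passed the test and red bars mark the list medians. Of the 9 genes of the germ cell list, which holds the pluripotency factors Nanog, Klf4 and Klf2, 7 lie right of 0, and the FGF pathway genes lie left of it except Fgf4, with Dusp6 and Etv4 beyond -5.

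H3K9me2 over the 4 genes was at or below middling levels in serum, and it fell over Prdm14 in LT2i. The level of a gene body is log2 of bound over pooled input, both in rpm (reads scaled to library size) with 0.5 added, over the 2-kb bins that touch the gene. The table held 55 bins for Dnmt3a, 19 of 20 for Dnmt3b, 11 of 12 for Dnmt3l and 8 for Prdm14. In serum every member had less bound than input rpm. The median level over all gene bodies was -0.85, so this was not particular to the members. The Prdm14 body stood at the 49.2nd percentile of 22204 gene bodies, Dnmt3a at the 48.2nd (51.7 and 44.4 in the 2 libraries), Dnmt3l at the 39.4th and Dnmt3b at the 31.4th.

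The 8 bins of Prdm14 held 76 and 66 bound reads in the serum libraries, 39 and 45 at 24 h, and 10 and 7 in LT2i, from libraries of 14396552 to 19279328 reads. The levels were -0.81 and -0.94 in serum, -1.28 and -1.15 at 24 h, and -2.89 and -3.04 in LT2i. No groups overlapped. The share of all bodies with groups apart in this way was not counted, and with 2 libraries a group such separation is weak evidence. Against serum the change in LT2i was -2.09 ± 0.14 (SE, n = 2 per group, limma adjusted p = 0.000301), and 0.356% of gene bodies fell further. The summed rpm were 7.47-fold lower (exact 95% interval 4.50 to 13.2, counting error only), and the 0.5 added to each level brings the modelled change to 4.26-fold. At 24 h the change was -0.34 (adjusted p = 0.393 in limma), so a fall by 24 h did not pass the test.

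Most gene bodies had a lower H3K9me2 level in LT2i on this scale, which gives a share of the reads and not an amount of the mark. Of 22204 bodies 61.5% were called, 54.4% lower and 7.16% higher, and the median change was -0.51. Relative to that median Prdm14 was 1.58 lower, Dnmt3a 0.51 lower, Dnmt3b 0.15 lower and Dnmt3l 0.17 higher. With the medians of the bound libraries set equal the calls over all bodies turned from 1590 higher and 12072 lower to 8918 higher and 3005 lower. The main direction over bodies therefore depended on the scaling. Prdm14 kept its call under that scaling at -1.31.

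Dnmt3a held 640 and 475 bound reads over its body in serum, 371 and 397 at 24 h, and 265 and 213 in LT2i. Its level fell from -0.92 to -1.94 in LT2i, by 1.02 ± 0.15 (adjusted p = 0.00138 in limma). Its LT2i libraries did not overlap serum. That held for all 4 bodies, and its share over all bodies was not counted. With medians set equal the change was -0.25 (adjusted p = 0.163). Dnmt3b held 139 and 124 reads in serum and 92 and 54 in LT2i, and fell by 0.67 ± 0.19 (adjusted p = 0.0202). That call was lost without serum replicate 1, serum replicate 2 or LT2i replicate 2 (adjusted p from 0.0599 to 0.0975), and the change was 0.11 with medians set equal. Dnmt3l held 91 and 82 reads in serum, 79 and 93 at 24 h and 72 and 48 in LT2i, a change of -0.35 ± 0.15 (adjusted p = 0.0843 in limma). It passed the test as lower without LT2i replicate 1 (-0.51, adjusted p = 0.0383) and as higher with medians set equal (0.43, adjusted p = 0.0320). The direction at Dnmt3b and Dnmt3l therefore depended on the scaling.

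At 24 h 0% of gene bodies, 0% of gene starts and 0% of single bins were called in either direction, by limma the only tool run. An unadjusted p under 0.05 was reached by 2772 of 22204 bodies, 2007 of 22981 starts and 77903 of 1026637 bins. The changes over the 4 bodies at 24 h ran from -0.34 (Prdm14) to 0.32 (Dnmt3l). With each group's own input in place of the pooled input 3 bodies, 915 starts and 47783 bins (4.65%) were called at 24 h, among them 3 bins in Dnmt3a, 1 in Dnmt3b and 1 in Dnmt3l. Both bound libraries of a group share its 1 input, so these calls leave out the error of that input. Among the 44 starts with 100 or more mean input reads 13 (29.5%) were called at 24 h.

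**Figure D4:**
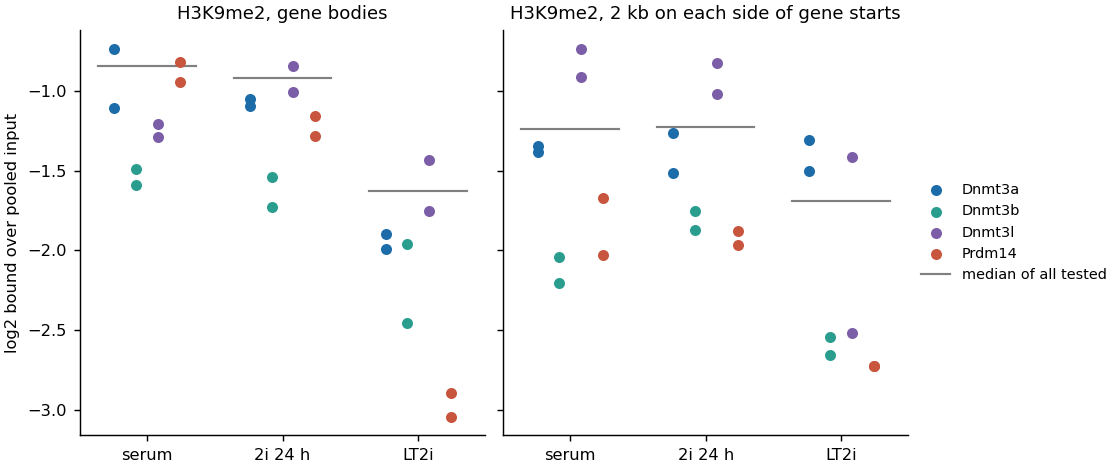
H3K9me2 level (log2 of bound over pooled input) over gene bodies (left) and within 2 kb of gene starts (right) in the serum, 24 h and LT2i groups. Each point is 1 bound library, and the grey line is the median of all features tested. The Prdm14 body drops to -2.89 and -3.04 in LT2i, where the median is -1.63.

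Around the gene starts, within 2 kb on either side, the order was another one. Of 22981 starts 28.6% were called in LT2i, 24% lower and 4.58% higher, with a median change of -0.26. With the medians of the bound libraries set equal these calls turned from 1053 higher and 5525 lower to 4701 higher and 1297 lower. The median change was then 0.19, so the main direction at starts depended on the scaling. The 6578 calls fell to 2441 and 3995 without serum replicate 1 or 2 and to 4185 and 3083 without LT2i replicate 1 or 2. With 100 or more mean input reads only 44 starts, none of them of the 4 genes, were tested, and 30 of these (68.2%) were called. The Dnmt3l start held 31 and 35 bound reads in serum, 21 and 26 at 24 h, and 18 and 3 in LT2i. It changed by -1.14 ± 0.25 (adjusted p = 0.000416 in limma), but the LT2i libraries lay far apart, and without LT2i replicate 2 the change was -0.59 (adjusted p = 0.153). The Prdm14 start held 6 and 10 reads in serum, 5 and 6 at 24 h, and 0 and 0 in LT2i. Against the 3 reads that a count of 0 allows over the group, its rpm were 4.77-fold lower. That value takes the 16 serum reads as exact, so it is not a lower limit. The modelled change was -0.88 (adjusted p = 0.00255 in limma). That call was lost without serum replicate 2 (adjusted p = 0.0704) and with medians set equal (adjusted p = 0.167). At the Dnmt3b start 7 and 5 reads in serum stood against 2 and 1 in LT2i, a ratio of 3.58 (exact 95% interval 0.965 to 19.8), and the modelled change was -0.47 (adjusted p = 0.110 in limma). The Dnmt3a start held 17 and 17 reads in serum and 14 and 15 in LT2i (change -0.04, adjusted p = 0.920). The counts at single starts are small. With each group's own input the change at the Dnmt3b start was -0.67 (adjusted p = 0.0194 in limma).

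Single bins show where the lower values lay. In LT2i 11.4% of bins were called, and 7.99% of 1026637 bins were called lower and 3.36% higher. In Prdm14 all 8 bins were lower than in serum and 3 were called, with 23, 23 and 35 serum reads (both libraries summed) against 3, 2 and 3 in LT2i, at 10.2, 8.16 and 6.16 kb from the start. In Dnmt3a 45 of 55 bins were below serum and 14 were called lower, 9.0 to 77.0 kb from the start. Below serum were also 17 of 19 bins in Dnmt3b and 7 of 11 in Dnmt3l. The share of all bins below serum was not counted, and the median gene body changed by -0.51. Neighbouring bins are not independent. The bin at the CpG-rich upstream start of Dnmt3a held 0 bound reads in serum, 1 at 24 h and 0 in LT2i. Dnmt3b had 1 called bin of 19, 17.6 kb from its start, and Dnmt3l none of 11. With each group's own input the called bins in LT2i were 3 in Prdm14, 21 in Dnmt3a, 5 in Dnmt3b and 1 in Dnmt3l, where 24.2% of all bins were called. These calls too leave out the error of the shared input. The 0.5 rpm added to each bin shrinks changes of single bins.

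**Figure D5:**
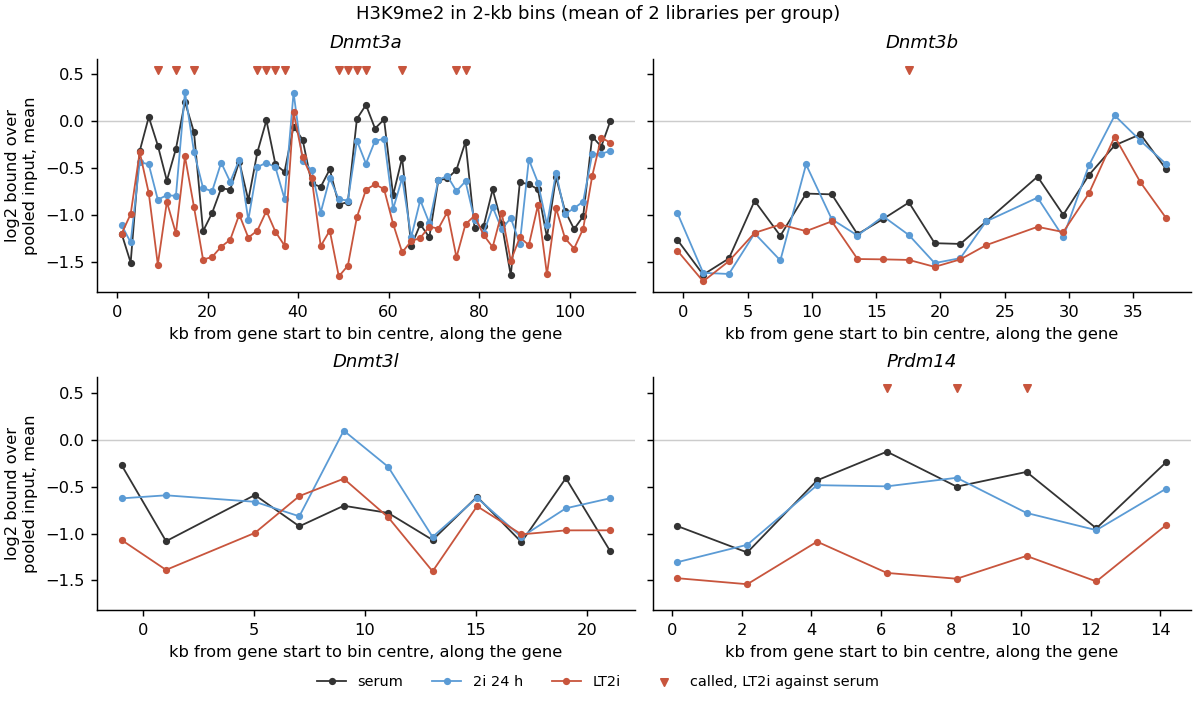
H3K9me2 level (log2 of bound over pooled input, mean of 2 libraries) in the 2-kb bins of each gene against distance from the gene start in kb, for the serum, 24 h and LT2i groups. Triangles mark bins called in LT2i against serum, 14 in Dnmt3a, 1 in Dnmt3b, none in Dnmt3l and 3 in Prdm14. Over Prdm14 the LT2i line lies below serum in all 8 bins, and the share of all bins below serum was not counted.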

How the data were processed

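The authors deposited, per gene, log2 values corrected for length and depth with a common 75th percentile (2.51), and, per 2-kb bin, log2 H3K9me2 and input reads scaled to one library size. Genes and bound bins without reads stood at 0.9 reads, and no input bin lay below 3 (log2), so bins had been filtered on input. Trim Galore 0.3.5, TopHat2 2.0.11 and Bowtie2 are in the submitters' processing notes without roles, and the sources used here name no read counter. Gene and bin coordinates match GRCm38, a build the labels list. Bisulfite files are on NCBIM37 and were not used. The labels call the RNA samples genomic DNA, while their protocol describes RNA. One exon length per gene made all 12 values whole reads for 99.98% of rows with reads (tolerance 0.01 reads, widened in proportion to the count).

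Genes with a mean of 0 or more (log2) entered limma 3.58.1 (R 4.3.3), with trend, all groups in one fit and no replicate block. In the RNA data, not in the labels, same-numbered samples deviated together in all 3 pairs of serum with 6 h, serum with 24 h and 6 h with 72 h (r over 0.1), and a fit with the block was an alternative. Gene bodies and starts with 20 or more mean input reads, and all bins, were fitted likewise. The scripts were tested on simulated data. Named genes were, per list, up to 4 called genes with the largest change at 72 h (with none called, the 2 with the highest level), 5 genes most like each member, and genes overlapping a member. Icosl and the comparison of 72 with 6 h were added after values were seen. Members and lists were chosen with earlier results of these data known. Alternatives tried were quantile scaling, median centring, span correction, another pseudocount, filters, fewer libraries, a replicate block, a fold limit, leaving out each library, own inputs, a lower prior and, chosen after seeing the data, limma's voom on recovered reads and leaving out libraries in the differences between members. Intervals cover counting error only, and the floor of 3 reads covers only that of the count of 0.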

Additional observations from a re-analysis of the deposited data

How the results depend on the processing

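Of 336 alternative fits of the members' expression, 330 kept direction and side of the threshold and none reversed. A required change of 1 or more (log2) removed Dnmt3a at 6 h (-0.80), Dnmt3b at 6 h (-0.61) and from 24 to 72 h (-0.86), and Prdm14 from 6 to 24 h (-0.55) and from 6 to 72 h (0.56), and span correction added Dnmt3a from 24 to 72 h (-0.48). The fold limit left 463, 2850 and 2038 of all genes and 10, 20 and 19 list genes called at 6, 24 and 72 h. Fitting only the 6 libraries compared called 3239 genes at 6 h, and leaving out 1 library 1042 to 1218. Voom on recovered reads changed no call of a member (Dnmt3l -5.55 and Prdm14 2.46 at 72 h).

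With each group's own input the change at 24 h reversed at the Dnmt3b body (0.13) and the Dnmt3a (0.087) and Dnmt3l (0.34) starts, and in LT2i at the Dnmt3a start (0.14), while the Dnmt3b start was called (-0.67). Called bins at 24 h became 3, 1 and 1 in Dnmt3a, Dnmt3b and Dnmt3l, where 4.65% of all bins were called, and in LT2i 5 in Dnmt3b and 1 in Dnmt3l (24.2% of all bins). Calls with own inputs leave out the error of the input that a group shares. Body percentiles moved to 30.3 (Dnmt3b), 36.0 (Dnmt3l) and 47.2 (Prdm14) in serum and 34.3 (Dnmt3b) at 24 h. With medians set equal, LT2i bodies gave -0.25 (Dnmt3a, call lost), 0.11 (Dnmt3b, reversed) and 0.43 (Dnmt3l, reversed), and starts 0.41 (Dnmt3a, reversed) and -0.43 (Prdm14, call lost). The cause was not tested. Leaving out 1 library, the 24 h bodies ran from -0.34 to 0.030 (Dnmt3a) and -0.19 to 0.0034 (Dnmt3b), the LT2i bodies from -0.91 to -0.42 (Dnmt3b) and -0.51 to -0.18 (Dnmt3l), the 24 h starts from -0.15 to 0.10 (Dnmt3a) and -0.25 to 0.11 (Prdm14), and the LT2i starts from -0.14 to 0.060 (Dnmt3a), -1.70 to -0.59 (Dnmt3l) and -1.06 to -0.70 (Prdm14).

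Deviations of same-numbered RNA samples correlated from -0.32 to 0.85 (mean 0.36, 15 of 18 over 0.1), those of differently numbered samples with a mean of -0.17 (10 of 36 over 0.1), and same-numbered bound libraries from 0.00 to 0.11. Deviations were taken from the group mean, so the mean over differently numbered samples largely follows from the other and is no separate evidence of pairing. With 2 bound libraries a group, the same-numbered pairs of a comparison give one value. All 3 pairs of serum with 6 h, serum with 24 h and 6 h with 72 h were over 0.1, and 2 of 3 in each other comparison. A replicate block called 2234, 8053 and 6786 genes at 6, 24 and 72 h and changed the call of no result it was run on, in expression (Dnmt3l -5.65, Prdm14 2.37 at 72 h) or H3K9me2.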
